A study of Homo sapiens with 18 samples.

Results

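The RNA of 10 genes of the KRAB corepressor and H3K9 heterochromatin machinery was followed in K562 cells in which a B2M:tdTomato transgene had been silenced by targeted epigenetic editing. The genes were chosen by symbol, as 10 of the 55766 entries of the RNA count table, and no threshold on their RNA values entered that choice, which was made with earlier results of these data known. They were ZNF10, TRIM28 (KAP1), SETDB1, ATF7IP, CBX1, CBX3, CBX5, MPHOSPH8, FAM208A (now named TASOR) and MORC2. K562 is an established human leukaemia line, and all cells of both assays, controls included, carried the transgene. Cells in the TALE group and cells in the dCas9 group had been silenced by DNA methylation directed to the B2M promoter by TALE proteins or by dCas9 with a guide RNA, and the third group was untreated. Silenced cells had received 3 plasmids together, for 3 different repressors, in a hit-and-run design. RNA-seq and MeDIP-seq each had 3 libraries a group. No label said whether the libraries of a group came from separate cultures, so each p-value measures the spread between these libraries, which may be technical. The time between treatment and collection is not given in the sources used here.

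The pathway under study is the silencing route that KRAB-based repressors borrow. KRAB zinc finger proteins bind DNA through their fingers, and their KRAB domain recruits TRIM28, a scaffold that brings in the H3K9 methyltransferase SETDB1 and the HP1 proteins that bind methylated H3K9. The KRAB domain used in many artificial repressors, those of this study included, is that of ZNF10. ATF7IP is a partner that stabilises SETDB1 in the nucleus. The HUSH complex, which contains MPHOSPH8 and FAM208A, spreads H3K9 methylation, and it works with SETDB1 and with the chromatin-compacting ATPase MORC2. K562 cells and most other dividing human cells express this machinery, which keeps transposable elements silent.

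Total RNA counts ran from 8460076 to 12050554 per library, and MeDIP counts in the listed regions from 2529729 to 4492751. The markers HBG1, HBG2, HBZ, GATA1, KLF1, TAL1 and TFRC of K562 cells were present in every library, the lowest value being 43.9 CPM (the count scaled to library size by TMM factors). Of 7 markers of other cell types, EPCAM stood at 85.0 to 118 CPM and the remaining 6 at 3.15 CPM or less, with CD8A at 0 in every TALE and dCas9 library. Their summed level was 99.5 to 114 CPM in untreated, 98.9 to 121 in TALE and 88.4 to 119 in dCas9 libraries. The targeted gene B2M had 48 to 79 counts in untreated, 3 to 7 in TALE and 2 to 3 in dCas9 libraries. A separate entry for the transgene, B2M_tomato, had 3115 to 4109 counts in untreated, 128 to 196 in TALE and 140 to 205 in dCas9 libraries. In these bulk samples, fewer cells with an RNA and less of it per cell cannot be told apart.

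No change in RNA level of any of the 10 genes passed the test in silenced cells. All 10 passed the filter on low counts, and 0 of 10 passed an adjusted p of 0.05 (edgeR quasi-likelihood test, Benjamini-Hochberg adjustment over 13786 genes) in any of 4 comparisons. Over all genes tested, 0.0218% passed when TALE and 0.029% when dCas9 was set against untreated. Between TALE and dCas9 it was 0%, and 0.0363% with the mean of both silenced groups (silenced against untreated). At an unadjusted p of 0.05, again 0 of 10 passed, where 7.15%, 5.93%, 6.38% and 6.35% of all genes did, and DESeq2 called 0 of 10 as well. In every comparison the CPM of the groups overlapped for all 10 genes. Over all genes, the groups did not overlap for 6.09% (higher) and 6.44% (lower) with TALE, 5.6% and 5.97% with dCas9, 4.88% and 4.5% between TALE and dCas9, and 1.53% and 2.01% with both silenced groups. With so small a background, a count of 0 of 10 is close to what all genes gave, and the interval of each change gives more information than the count. The comparisons with untreated cells share the same 3 untreated libraries and are not independent of each other.

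Intervals show which sizes of change the fit allowed for each gene. The 95% interval of the fold change contained 1 for all 10 genes in each comparison. For TALE against untreated the intervals together ran from 0.750-fold (MPHOSPH8) to 1.52-fold (ZNF10), and for dCas9 against untreated from 0.722-fold (TRIM28) to 1.48-fold (CBX5). TALE against dCas9 gave 0.713-fold (ATF7IP) to 1.46-fold (ZNF10). For both silenced groups together, the outermost ends were 0.774-fold and 1.43-fold, both of ZNF10, the gene with the fewest counts. Each interval covers 1 gene in 1 comparison, with no allowance for reading many intervals together. The fit took 1 spread per gene for all groups, although the groups differed in spread. The data therefore do not exclude changes inside these intervals, and they do not firmly exclude changes outside them. The absence of a call does not show equal levels.

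**Figure D1:**
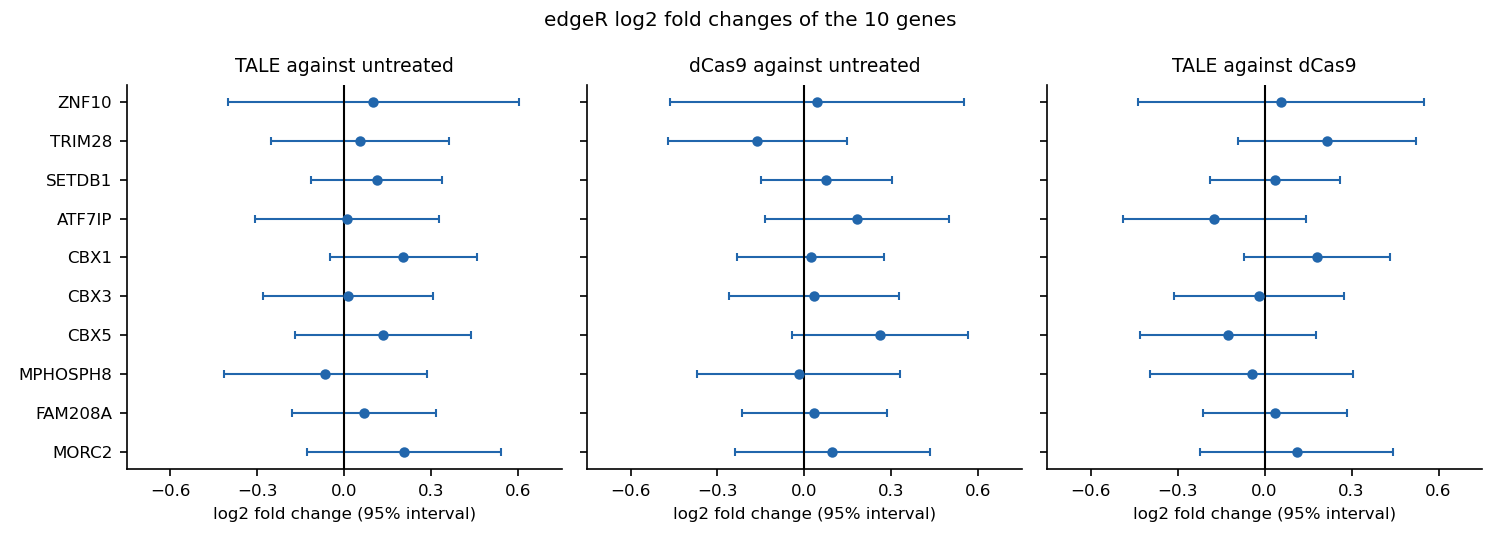
Points are the edgeR log2 fold changes of each gene and bars their 95% intervals, for each silenced group against untreated cells and for TALE against dCas9. Every bar crosses 0, and the widest bars are those of ZNF10, from -0.40 to 0.60 for TALE against untreated.

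More of the fold changes were positive than negative, and small. The log2 fold change was above 0 for 9 of 10 genes with TALE, with a median of 0.08, but those of ATF7IP (0.01) and CBX3 (0.01) turned below 0 with upper-quartile scaling. It was above 0 for 8 of 10 with dCas9, with a median of 0.04, and for 8 of 10 with both silenced groups together, with a median of 0.08. Over all genes tested the median was 0.00 in each of these comparisons, and 50.6%, 49.2% and 50.1% of genes lay above 0. The directions depended on the library. In TALE replicates 1, 2 and 3, 9, 6 and 3 of 10 genes lay above their untreated mean, and 2, 8 and 7 in dCas9. Leaving out 1 library also turned FAM208A, MPHOSPH8 and ZNF10 with TALE. With dCas9 it turned CBX1, CBX3, FAM208A, MPHOSPH8 and ZNF10.

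ZNF10, the KRAB zinc finger gene whose repressor domain is used in the effectors, had the lowest counts of the 10. Its counts were 54, 45 and 45 in untreated replicates 1, 2 and 3, 68, 59 and 61 in TALE, and 50, 42 and 72 in dCas9. On the CPM scale these were 4.71, 5.56 and 5.45 in untreated, 6.66, 4.55 and 5.65 in TALE, and 4.63, 4.35 and 7.14 in dCas9. The highest value belonged to dCas9 replicate 3 and the lowest to dCas9 replicate 2, so the dCas9 group alone spanned the range of all 9 libraries. Group means were 5.24 ± 0.460 (SD, n = 3) CPM in untreated, 5.62 ± 1.06 (SD, n = 3) in TALE and 5.37 ± 1.54 (SD, n = 3) in dCas9. Fold changes of ZNF10 on the log2 scale were 0.10 (SE 0.238, edgeR adjusted p 0.958) with TALE and 0.04 (SE 0.241, edgeR adjusted p 0.996) with dCas9. Counts per gene cannot separate RNA of the endogenous gene from any RNA that an effector plasmid with the same domain would give.

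CpG sites are the feature that DNA methylation acts on. The region just upstream of ZNF10 is shown because, with FAM208A, it held the highest CpG density of the 10 genes. It is the 250 bases before the annotated gene start in GRCh37 (hg19), on the plus strand, with CpG sites in capitals. ZNF10 at chr12:133706911-133707160 holds 37 CpG sites, or 14.8 per 100 bases. MeDIP captures DNA only where it is methylated, and the nearest MeDIP region lay 1153 bases from the ZNF10 start, outside this window.
ZNF10 upstream window: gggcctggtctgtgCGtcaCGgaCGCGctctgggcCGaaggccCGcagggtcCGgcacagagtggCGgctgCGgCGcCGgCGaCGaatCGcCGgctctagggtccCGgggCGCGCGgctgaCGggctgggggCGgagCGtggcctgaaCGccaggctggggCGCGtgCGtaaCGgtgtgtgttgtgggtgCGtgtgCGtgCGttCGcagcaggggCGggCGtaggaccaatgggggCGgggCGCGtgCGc
The median of such windows was 5.6 CpG sites per 100 bases over 20132 protein-coding genes and 8.2 over the 10 genes. FAM208A equalled ZNF10 at 14.8, MORC2 had 12.4 and MPHOSPH8 10.4. CBX1 had 9.6, CBX3 and CBX5 had 6.8 each, ATF7IP had 5.6 and SETDB1 had 3.6, and 1 gene is not listed here. The windows of CBX3 and CBX5 also overlap exons of the neighbouring genes HNRNPA2B1 and HNRNPA1, and that of ATF7IP an exon of the pseudogene RPL30P11.

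TRIM28 codes for the scaffold protein that KRAB domains bind. Its CPM was 195, 203 and 197 in untreated replicates 1, 2 and 3, 220, 219 and 179 in TALE, and 183, 136 and 213 in dCas9. The untreated libraries were nearly equal, at 198 ± 4.08 (SD, n = 3) CPM, and lay inside the range of each silenced group. TALE stood at 206 ± 23.2 (SD, n = 3) and dCas9 at 177 ± 38.9 (SD, n = 3) CPM, where dCas9 replicate 2 was the lowest of all 9 libraries. Set against untreated cells, TRIM28 had log2 fold changes of 0.05 (SE 0.146, edgeR adjusted p 0.967) with TALE and -0.16 (SE 0.146, edgeR adjusted p 0.970) with dCas9. TRIM28 had the largest difference between both silenced groups among the 10 genes, 0.22 (SE 0.146, edgeR adjusted p 0.842), which did not exceed the spread between libraries. Without dCas9 replicate 2 it was 0.06, and the change for dCas9 was -0.0029. Without dCas9 replicate 3 they were 0.37 and -0.31.

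SETDB1, which methylates H3K9, was the steadiest of the 10 genes. Its CPM was 50.4, 47.2 and 47.0 in untreated replicates 1, 2 and 3, 51.3, 55.0 and 49.9 in TALE, and 47.6, 50.7 and 54.0 in dCas9. The highest library was 1.17 times the lowest. The SD of log2 CPM within groups was 0.0739, at the 2.29 percentile of all genes tested. Means were 48.2 ± 1.90 (SD, n = 3) CPM in untreated, 52.1 ± 2.59 (SD, n = 3) in TALE and 50.8 ± 3.20 (SD, n = 3) in dCas9. Both silenced means were above the untreated mean, and the 3 groups overlapped. Log2 fold changes of SETDB1 were 0.11 (SE 0.107, edgeR adjusted p 0.861) with TALE and 0.08 (SE 0.108, edgeR adjusted p 0.992) with dCas9. SETDB1 had the lowest exact permutation p of the 10 genes when 6 silenced libraries were set against 3 untreated, 0.0833 (two-sided), where the smallest possible value is 0.0119.

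ATF7IP, the partner of SETDB1, varied more. Its CPM was 114, 92.8 and 94.3 in untreated replicates 1, 2 and 3, 118, 99.0 and 85.8 in TALE, and 94.2, 139 and 108 in dCas9. The extremes were dCas9 replicate 2 at the top and TALE replicate 3 at the bottom, and the 3 groups overlapped. Means were 100 ± 11.6 (SD, n = 3), 101 ± 16.2 (SD, n = 3) and 114 ± 23.1 (SD, n = 3) CPM in untreated, TALE and dCas9. For ATF7IP, log2 fold changes came to 0.01 (SE 0.151, edgeR adjusted p 0.998) with TALE and 0.18 (SE 0.151, edgeR adjusted p 0.965) with dCas9. That of dCas9 was 0.01 without dCas9 replicate 2 and 0.30 without dCas9 replicate 1.

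The HP1 proteins, which bind methylated H3K9 and interact with each other and with TRIM28, are coded by CBX1 (HP1 beta), CBX3 (HP1 gamma) and CBX5 (HP1 alpha). CBX1 had 63.0, 62.5 and 57.6 CPM in untreated replicates 1, 2 and 3, 79.7, 71.5 and 59.8 in TALE, and 60.0, 67.1 and 59.0 in dCas9. TALE replicates 1 and 2 were the highest of all libraries, and TALE replicate 3 fell inside the untreated range. Means were 61.0 ± 2.99 (SD, n = 3), 70.3 ± 9.97 (SD, n = 3) and 62.0 ± 4.42 (SD, n = 3) CPM in untreated, TALE and dCas9. On the log2 scale the fold change of CBX1 was 0.20 (SE 0.120, edgeR adjusted p 0.770) with TALE, whose unadjusted p of 0.107 was the lowest of the 10 genes in that comparison. It was 0.02 (SE 0.121, edgeR adjusted p 0.996) with dCas9. The TALE value of CBX1 was 0.11 without TALE replicate 1 and 0.31 without TALE replicate 3.

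CBX3 was the most abundant of the 10 genes. It had 366, 358 and 337 CPM in untreated replicates 1, 2 and 3, 327, 319 and 425 in TALE, and 396, 377 and 312 in dCas9. TALE replicate 3, the lowest library for ATF7IP, CBX5 and MORC2, was the highest for CBX3. Means were 354 ± 14.8 (SD, n = 3), 357 ± 59.0 (SD, n = 3) and 362 ± 44.2 (SD, n = 3) CPM, and the log2 fold changes were 0.01 (SE 0.139, edgeR adjusted p 0.997) with TALE and 0.03 (SE 0.139, edgeR adjusted p 0.996) with dCas9. The table also lists a processed copy, CBX3P9, with 70 to 130 counts beside 2788 to 4587 of CBX3, so some counts of either entry may belong to the other.

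CBX5 had the lowest unadjusted p of the 10 genes in any comparison. Its CPM was 253, 255 and 236 in untreated replicates 1, 2 and 3, 305, 292 and 218 in TALE, and 249, 338 and 303 in dCas9. In each silenced group, 2 of 3 libraries lay above all untreated libraries and the other did not. Means were 248 ± 10.3 (SD, n = 3), 272 ± 46.8 (SD, n = 3) and 297 ± 44.9 (SD, n = 3) CPM in untreated, TALE and dCas9. With dCas9 its log2 fold change was 0.26 (SE 0.145), with an unadjusted edgeR p of 0.0889 and an adjusted p of 0.899, and 0.13 (SE 0.145, edgeR adjusted p 0.875) with TALE. The dCas9 value of CBX5 was 0.16 without dCas9 replicate 2 and 0.37 without dCas9 replicate 1, and the TALE value 0.04 without TALE replicate 1 and 0.27 without TALE replicate 3. The ratio of CBX5 to CBX3 counts lay between 0.690 and 0.712 in the 3 untreated libraries. It was 0.934, 0.916 and 0.514 in TALE replicates 1, 2 and 3 and 0.629, 0.898 and 0.973 in dCas9. Untreated libraries thus kept CBX5 and CBX3 in nearly a fixed proportion, while libraries of each silenced group lay on both sides of it.

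**Figure D2:**
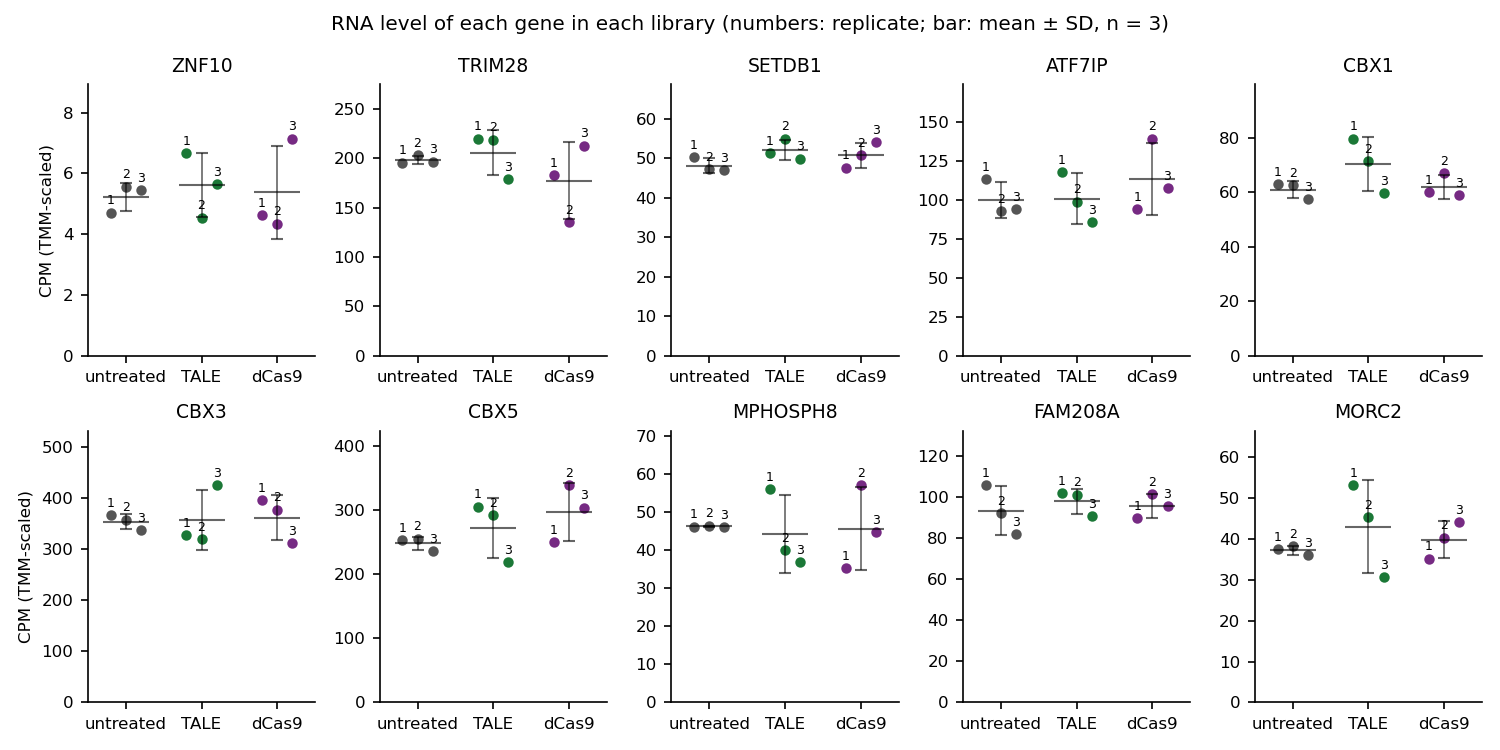
Each panel plots the TMM-scaled CPM of a gene in the 9 RNA libraries, with the replicate number over each point, and bars show the mean ± SD of 3 libraries. The 3 groups overlap in all 10 panels, and untreated points lie close together for TRIM28, MPHOSPH8 and MORC2 (means 198, 46.2 and 37.3 CPM).

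Among the HUSH genes, MPHOSPH8 codes for a chromodomain protein that reads methylated H3K9. Its CPM was 46.2, 46.5 and 46.1 in untreated replicates 1, 2 and 3, 56.1, 40.0 and 36.8 in TALE, and 35.2, 57.0 and 44.7 in dCas9. Untreated libraries were almost identical, at 46.2 ± 0.191 (SD, n = 3) CPM, and both silenced groups had libraries well above and below them. Means were 44.3 ± 10.3 (SD, n = 3) CPM in TALE and 45.7 ± 10.9 (SD, n = 3) in dCas9. Fold changes of MPHOSPH8 were near 1, at a log2 value of -0.06 (SE 0.167, edgeR adjusted p 0.963) with TALE and -0.02 (SE 0.167, edgeR adjusted p 0.998) with dCas9.

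FAM208A, which codes for the HUSH scaffold protein TASOR, was the only gene of the 10 with a wider range in untreated cells than in both silenced groups. It had 106, 92.4 and 82.0 CPM in untreated replicates 1, 2 and 3, 102, 101 and 90.9 in TALE, and 89.9, 102 and 95.8 in dCas9. All 6 silenced libraries lay inside the untreated range. Means were 93.5 ± 12.0 (SD, n = 3), 98.1 ± 6.28 (SD, n = 3) and 95.8 ± 5.94 (SD, n = 3) CPM. Its log2 fold changes were 0.07 (SE 0.118, edgeR adjusted p 0.932) with TALE and 0.03 (SE 0.119, edgeR adjusted p 0.996) with dCas9.

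MORC2, the ATPase that acts with HUSH, had the largest positive change with TALE and the widest range among libraries. Its CPM was 37.5, 38.2 and 36.1 in untreated replicates 1, 2 and 3, 53.1, 45.2 and 30.7 in TALE, and 35.1, 40.3 and 44.1 in dCas9. The highest library was 1.73 times the lowest, and both belonged to the TALE group. Means were 37.3 ± 1.09 (SD, n = 3), 43.0 ± 11.4 (SD, n = 3) and 39.8 ± 4.51 (SD, n = 3) CPM in untreated, TALE and dCas9. MORC2 had log2 fold changes of 0.21 (SE 0.159, edgeR adjusted p 0.813) with TALE and 0.10 (SE 0.160, edgeR adjusted p 0.994) with dCas9. The change of MORC2 with TALE rested on single libraries. It was 0.03 (edgeR adjusted p 0.997) without TALE replicate 1 and 0.40 without TALE replicate 3, whose edgeR adjusted p of 0.162 was the lowest of any of the 10 genes under any alternative run. With dCas9 it ran from 0.02 without dCas9 replicate 3 to 0.18 without dCas9 replicate 1. The antisense entry MORC2-AS1 had 0 to 3 counts. The strand setting and the rule for shared reads are not given, so this does not show how many antisense reads MORC2 took in.

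The genes differed far more from each other than between groups. Per kilobase of annotated exon, untreated levels were 73.1 ± 3.07 (SD, n = 3) CPM per kb for CBX3 and 46.1 ± 0.949 (SD, n = 3) for TRIM28. CBX1 stood at 20.1 ± 0.984 (SD, n = 3), CBX5 at 16.5 ± 0.684 (SD, n = 3) and FAM208A at 9.49 ± 1.22 (SD, n = 3) CPM per kb. MPHOSPH8 stood at 9.42 ± 0.0389 (SD, n = 3), ATF7IP at 7.63 ± 0.881 (SD, n = 3) and SETDB1 at 6.53 ± 0.257 (SD, n = 3) CPM per kb. MORC2 with 3.44 ± 0.101 (SD, n = 3) and ZNF10 with 0.946 ± 0.083 (SD, n = 3) CPM per kb closed the order, which was the same in TALE and dCas9 cells. FAM208A and MPHOSPH8 overlapped in all 3 groups and cannot be ordered. CBX1 and CBX5, MPHOSPH8 and ATF7IP, and ATF7IP and SETDB1 overlapped in TALE and in dCas9 libraries and were separate in untreated ones. Per kilobase of the longest annotated transcript, the order of FAM208A, MPHOSPH8, ATF7IP and SETDB1 changed, and CBX5 (25.7) stood just above CBX1 (25.6 CPM per kb) in dCas9 cells. Under both lengths, and in all 3 groups, CBX3 and TRIM28 were the highest and MORC2 and ZNF10 the lowest.

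**Figure D3:**
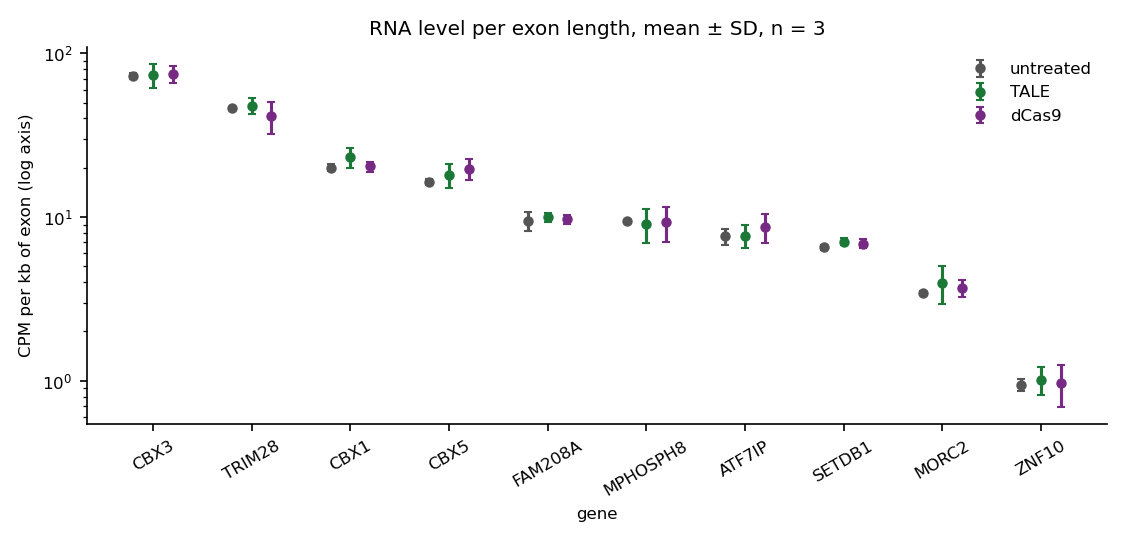
The log axis gives the RNA level of each gene as TMM-scaled CPM per kb of annotated exon, with points for the mean and bars for the SD of 3 libraries in each group. From CBX3 at 73.1 to ZNF10 at 0.946 CPM per kb in untreated cells, the order is the same in the 3 groups, and neighbours between FAM208A and SETDB1 have overlapping bars in TALE and dCas9.

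Libraries within a silenced group spread more than untreated libraries, for these genes and for genes in general. The SD of log2 CPM within a group had a median of 0.0608 over the 10 genes in untreated cells, 0.230 in TALE and 0.203 in dCas9. Over all 13786 genes it was 0.142, 0.200 and 0.199. The SD was larger than in untreated cells for 9 of 10 genes in each silenced group, against 61.5% of all genes in TALE and 63.6% in dCas9. Untreated replicates 2 and 3 were unusually alike. The chi-square per degree of freedom between their RNA counts was 2.29, against 14.4 and 13.6 for each with replicate 1. It was 12.1 to 31.9 between TALE libraries and 19.4 to 50.4 between dCas9 libraries. The reason for this likeness was not tested. Pooled over the groups, the median SD was 0.208 for the 10 genes and 0.206 for all genes. These medians are not matched for level. ZNF10 lay at the 27.5 percentile of level, and the other members from 66.1 (MORC2) to 97.2 (CBX3). Pooling also joins the lower untreated median of the 10 genes with their higher TALE median, so it does not show a typical spread.

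Single libraries carried much of that spread. TALE replicate 1 had 9 of 10 genes above their untreated mean, TALE replicate 2 had 6 and TALE replicate 3 had 3. Among dCas9 libraries, replicate 1 had 2 of 10 genes above, replicate 2 had 8 and replicate 3 had 7. Over all genes tested, 49.8%, 51.5% and 52.0% lay above in TALE replicates 1, 2 and 3, and 52.4%, 48.8% and 51.1% in dCas9. TALE replicate 3 was the lowest of 9 libraries for ATF7IP, CBX5 and MORC2 and the highest for CBX3. In dCas9 replicate 2, ZNF10 and TRIM28 were lowest and ATF7IP, CBX5 and MPHOSPH8 highest. The share of counts from genes of the mitochondrial genome differed between the same libraries, at 7.15% to 10.3% in untreated, 4.04% to 6.32% in TALE, and 6.15%, 14.0% and 10.8% in dCas9 replicates 1, 2 and 3. Its part in the result was not tested.

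**Figure D4:**
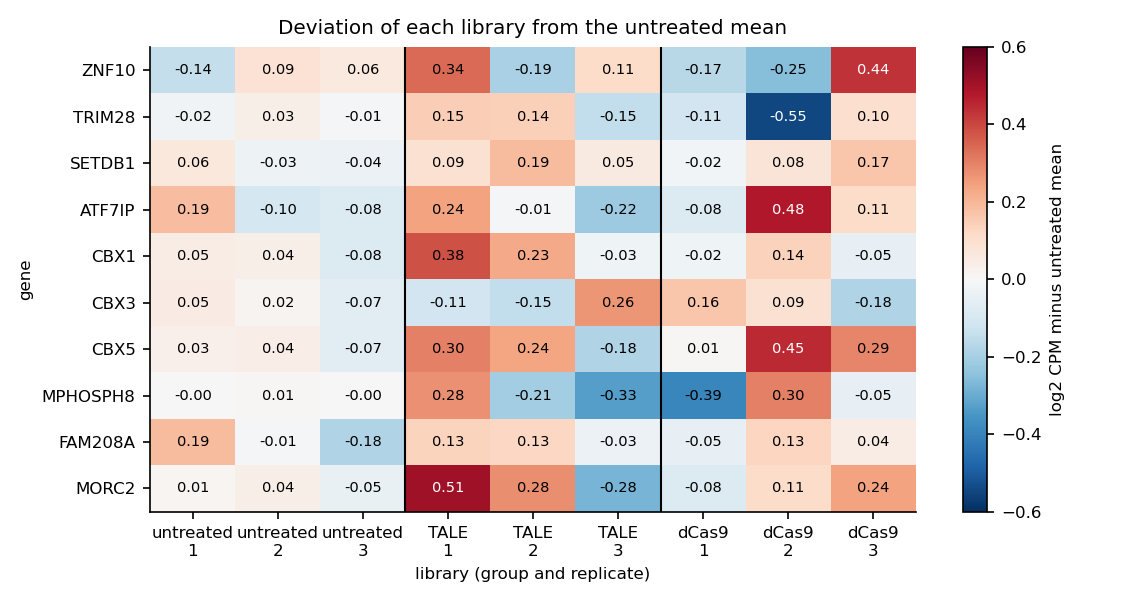
Cells give the log2 CPM of a gene (rows) in a library (columns) minus its mean in the 3 untreated libraries, red for above and blue for below. TALE replicate 1 is above for 9 of 10 genes and TALE replicate 3 for 3 of 10, and the untreated columns are pale for most genes.

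No other gene of the pathway passed the test either. Of 51 genes in 6 lists around the 10 genes, 47 passed the filter on low counts, and 0 passed the edgeR adjusted p in any comparison. Lists held the other HUSH and MORC genes (3 tested of 5), other H3K9 methyltransferases and partners (8 of 8), other TIF1 family genes and TRIM28 partners (10 of 10), H3K9 demethylases (11 of 11), HP1 partners and heterochromatin genes (11 of 11) and KRAB zinc finger neighbours of ZNF10 (4 of 6). For both silenced groups against untreated, the median log2 fold change of the lists was 0.01, 0.07, 0.10, 0.01, 0.07 and -0.28 in that order, beside 0.00 over all genes. In each list the gene with the lowest unadjusted p in that comparison is described, as are all neighbours of ZNF10.

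TRIM24, a relative of TRIM28 in the TIF1 family, was higher in all 6 silenced libraries than in all 3 untreated ones, which held for 1.53% of all genes. Its CPM was 218, 192 and 196 in untreated replicates 1, 2 and 3, 252, 248 and 223 in TALE, and 237, 283 and 236 in dCas9. The log2 fold change of TRIM24 for both silenced groups was 0.29 (SE 0.106, unadjusted edgeR p 0.0149), and it failed the correction with an adjusted p of 0.616. KDM4B, an H3K9 demethylase, had 36.2, 39.4 and 39.9 CPM in untreated, 28.1, 29.9 and 30.2 in TALE, and 32.7, 36.5 and 36.1 in dCas9. All TALE values of KDM4B lay below all untreated ones, as they did for 6.44% of all genes, and the log2 fold change with TALE was -0.39 (SE 0.113, unadjusted edgeR p 0.00308, adjusted p 0.483). KDM4B overlapped between dCas9 and untreated, with -0.13 (SE 0.113, unadjusted edgeR p 0.255), and for both silenced groups, with -0.26 (SE 0.0971, unadjusted edgeR p 0.0155, adjusted p 0.628). ATF7IP2, a homologue of ATF7IP, had a change of -0.29 (SE 0.136, unadjusted edgeR p 0.0496, adjusted p 0.785) for both silenced groups, with overlapping groups. Those of UHRF1, which binds hemimethylated DNA, and of PPHLN1, the third HUSH subunit, were 0.22 (SE 0.147, edgeR adjusted p 0.868) and 0.09 (SE 0.0934, edgeR adjusted p 0.925).

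ZNF10 lies in a cluster of KRAB zinc finger genes near the end of chromosome 12, and the log2 fold changes of its 4 tested neighbours for both silenced groups were negative and did not pass the correction. ZNF891 had 4.45, 5.44 and 4.96 CPM in untreated replicates 1, 2 and 3, 4.02, 3.55 and 4.08 in TALE, and 2.87, 4.04 and 4.16 in dCas9. Its 6 silenced values were all below the 3 untreated ones, as for 2.01% of all genes, with a log2 fold change of -0.38 (SE 0.201, edgeR adjusted p 0.829). ZNF140 and ZNF605, which overlapped between groups, had changes of -0.47 (SE 0.258, edgeR adjusted p 0.834) and -0.16 (SE 0.303, edgeR adjusted p 0.969). ZNF268 had 19.4, 18.5 and 18.0 CPM in untreated, 20.8, 16.7 and 20.7 in TALE, and 16.8, 13.4 and 12.6 in dCas9. Its dCas9 values were the lowest, apart from an overlap with TALE replicate 2. The log2 difference of TALE minus dCas9 was 0.44 (SE 0.149, unadjusted edgeR p 0.00844, adjusted p 0.687). All dCas9 values of ZNF268 lay below all untreated ones, as for 5.97% of all genes. Its log2 fold change against untreated was -0.39 (SE 0.151, unadjusted edgeR p 0.0195, adjusted p 0.722) with dCas9. With TALE it was 0.05 (SE 0.147), so the negative value for both silenced groups together came from dCas9. ZNF26 and ZNF84 were not tested, with 0 to 4 counts in each library.

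MeDIP-seq, which captures methylated DNA with an antibody against 5-methylcytosine, asked whether the 10 genes differed in methylation. None of their annotated starts lay in a MeDIP region, and no start carried a peak in any of 9 samples. Of 20136 protein-coding genes, 1.78% had a start in a region, so starts outside regions are the rule. Within 2 kb of the start, 6 of 10 genes had a region, against 43.6% of protein-coding genes, and within 5 kb 8 of 10, against 67.9%. All 10 genes had regions inside the gene, against 73.9%. The 10 genes are 6659 (TRIM28) to 137256 (ATF7IP) bases long, and the shares inside genes were not matched for gene length. Some annotated alternative starts did lie in a region, 2 of 15 for TRIM28, 1 of 17 for SETDB1 and 1 of 8 for CBX3.

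Inside the genes, regions covered between 7.93% (ATF7IP) and 18.49% (CBX1) of the gene body. There were 132 regions in the genes or within 2 kb of their starts, of which 101 were in introns, 15 in coding exons, 9 in other exons and 7 outside the genes. A peak was present in all 9 samples at 39 of them. The CpG density of the regions, with a median of 2.75 sites per 100 bases, was close to the 2.82 of all regions. It was lower than that of the start windows given above.

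**Figure D5:**
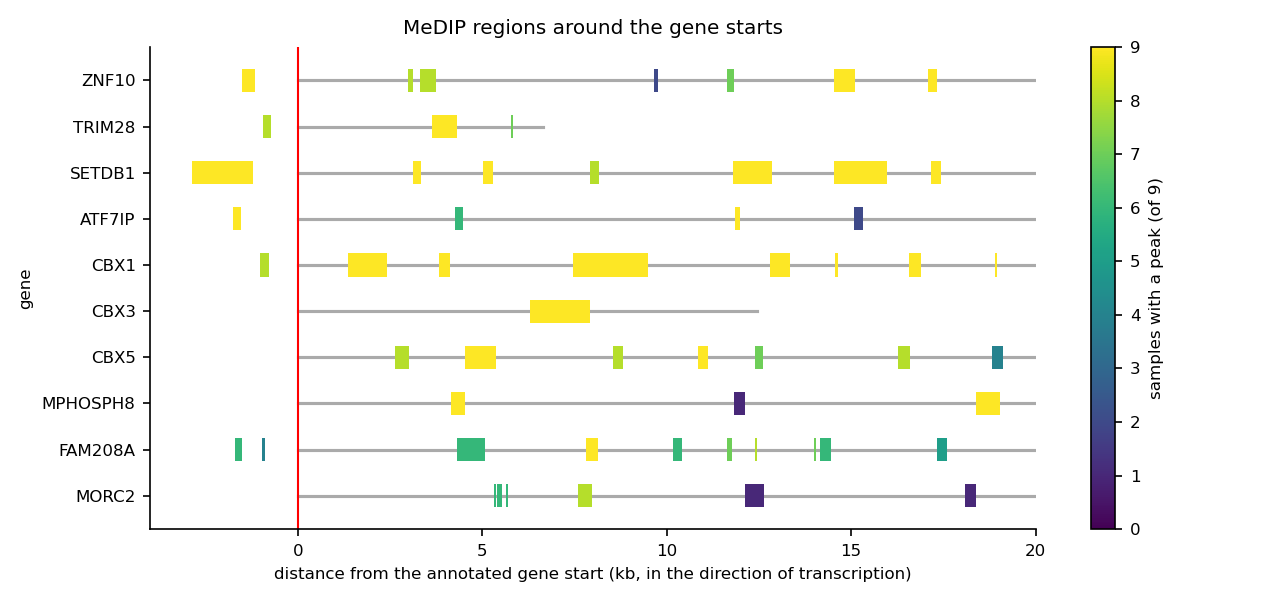
Grey lines are the genes, drawn from their annotated start (red line, 0 kb) up to 20 kb, and boxes are MeDIP regions, coloured by how many of 9 samples had a peak there. The space next to each annotated gene start is free of regions in all 10 genes, and no region lies closer than 728 bases to it. Alternative starts are not marked, and upstream only regions within 2 kb of the gene start are drawn.

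Of the 132 regions, 65 passed the filter on low counts, and 0 of 65 passed an edgeR adjusted p of 0.05 in any comparison. Over the 105652 regions tested, 0% passed with TALE and 0.000947% with dCas9, each against untreated, 0.000947% between TALE and dCas9, and 0% with both silenced groups. At an unadjusted p of 0.05, 1 region of the 65 was higher and 3 lower with TALE (4.74% of all regions in either direction), and 2 were higher and 1 lower with dCas9 (4.69%). TALE minus dCas9 gave 2 higher and 1 lower (4.47%), and both silenced groups gave 4 higher and 1 lower (4.88%). These shares at an unadjusted p of 0.05 were near those of all regions. Groups did not overlap on the CPM scale for 6 higher and 4 lower regions with TALE (5.15% and 5.01% of all regions) and for 6 and 5 with dCas9 (5.21% and 5.12%). Between TALE and dCas9 there were 5 higher and 1 lower (4.91% and 5.06%), and with both silenced groups 4 and 2 (1.27% and 1.18%). Against untreated cells, regions without overlap were a larger share of the 65 than of all regions, most of all with both silenced groups. These are small counts, and whether the excess is more than chance was not tested. The median log2 fold change of the 65 regions with both silenced groups was 0.01, beside -0.01 over all regions.

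The region with the lowest unadjusted p lay in an intron of ATF7IP, at chr12:14641467-14643168, 122857 bases from its start. MeDIP gave 8, 7 and 7 counts there in untreated replicates 1, 2 and 3, 20, 28 and 18 in TALE, and 10, 21 and 7 in dCas9, and a peak in 2 TALE samples and no other. As CPM these were 2.54 ± 0.401 (SD, n = 3) in untreated, 8.39 ± 3.11 (SD, n = 3) in TALE and 4.14 ± 1.23 (SD, n = 3) in dCas9. Values of both silenced groups lay above all untreated ones on the CPM scale, as for 1.27% of all regions. The region had 7 counts in both dCas9 replicate 3 and untreated replicate 2, which only the scaling to library size set apart. On the log2 scale its fold change was 1.69 (SE 0.441, unadjusted edgeR p 0.000229, adjusted p 0.772) for TALE and 1.23 (SE 0.407, unadjusted edgeR p 0.0034, adjusted p 1.00) for both silenced groups, so it failed the correction.

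An intron region of CBX5, at chr12:54644634-54645091, had lower values in silenced cells. MeDIP gave 48, 29 and 41 counts there in untreated replicates 1, 2 and 3, 11, 16 and 32 in TALE, and 23, 37 and 28 in dCas9. As CPM it was 13.3 ± 1.30 (SD, n = 3), 6.72 ± 1.89 (SD, n = 3) and 10.3 ± 1.60 (SD, n = 3), and all silenced values were below the untreated ones, as for 1.18% of all regions. The log2 fold change was -0.66 (SE 0.249, unadjusted edgeR p 0.00927, adjusted p 1.00). CBX5 RNA, with 1 TALE and 1 dCas9 library in or below the untreated range, showed no such separation of groups.

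The region upstream of ZNF10, at chr12:133705653-133706008, had 24, 17 and 29 counts in untreated replicates 1, 2 and 3, 10, 25 and 31 in TALE, and 22, 20 and 11 in dCas9. Both silenced groups together gave it a log2 fold change of -0.19 (SE 0.297, edgeR adjusted p 1.00). A second ZNF10 region, in an intron at chr12:133710470-133710901, had 13, 17 and 31 counts in untreated, 5, 2 and 17 in TALE, and 16, 33 and 9 in dCas9. The TALE and untreated counts of this second region overlapped, and its log2 fold change with TALE was -1.31 (SE 0.446, unadjusted edgeR p 0.00431, adjusted p 1.00). It was -0.10 (SE 0.394, unadjusted edgeR p 0.794) with dCas9 and -0.70 (SE 0.356, unadjusted edgeR p 0.0509, adjusted p 1.00) for both silenced groups. The last value ran from -1.14 without TALE replicate 3 to -0.37 without untreated replicate 3, and that of the upstream ZNF10 region from -0.34 without dCas9 replicate 1 to -0.08 without untreated replicate 3. Neither ZNF10 region differed beyond the correction.

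Other regions near a start, or with the lowest p of a gene, did not differ beyond the correction either. For both silenced groups against untreated, a SETDB1 intron region at chr1:150928468-150928736 had a log2 fold change of 0.63 (SE 0.297, unadjusted edgeR p 0.0373) and a CBX1 exon region at chr17:46165490-46166028 of 0.43 (SE 0.200, unadjusted edgeR p 0.0333). The broad region upstream of SETDB1, at chr1:150895863-150897526, had 114 to 144 counts in untreated, 80 to 141 in TALE and 106 to 168 in dCas9 libraries, with a change of 0.03 (SE 0.131). Upstream of ATF7IP, the region at chr12:14516863-14517080 had a value of -0.68 (SE 0.417, unadjusted edgeR p 0.105). For a CBX1 intron region at chr17:46176420-46177470 the value was 0.40 (SE 0.218), for the only CBX3 region, at chr7:26247089-26248700, 0.02 (SE 0.202), and for a TRIM28 exon region at chr19:59059079-59059756 -0.14 (SE 0.241). MPHOSPH8, FAM208A and MORC2 had intron regions with -0.27 (SE 0.310), -0.67 (SE 0.378) and -0.53 (SE 0.359). Several of these values moved by over 1.5 times when 1 library was left out. The MORC2 region ran from -0.83 without untreated replicate 3 to -0.16 without untreated replicate 2, and the CBX1 intron region from 0.17 without untreated replicate 3 to 0.85 without untreated replicate 1. The MPHOSPH8 region came to -0.13 without dCas9 replicate 2, the ATF7IP upstream region to -0.36 without untreated replicate 2, and the TRIM28 exon region ran from -0.28 without TALE replicate 1 to -0.05 without TALE replicate 3. None of these regions passed the edgeR correction, each with an adjusted p of 1.00. Both regions upstream of FAM208A, with 0 to 6 counts in each library, were too low to test.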

How the data were processed

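RNA-seq counts per gene symbol and MeDIP-seq counts per region were deposited by the authors as raw whole numbers for 9 libraries each. Per the submitters' processing notes, RNA reads were aligned with STAR 2.3.0 and MeDIP reads with BWA 0.7.5 to hg19, and Picard, MACS2 and bedtools were used. The counter, the annotation, the strand setting and the rule for shared reads are not given in the sources used here. Per the labels' protocols, RNA was amplified with a kit for degraded RNA, and MeDIP libraries were pooled before capture. The deposited peak lists of each MeDIP sample hold a score, a signal (fold enrichment) and −log10 p and q values by the authors. Only the peak positions were used here, and each list was called per sample.

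Counts were tested in R 4.3.3 with edgeR 4.0.16 (TMM factors, filterByExpr with a minimum of 10 counts, glmQLFit and glmQLFTest) in 1 model of group means over 9 libraries, per assay. An SE was derived from the test statistic and a 95% interval from it. Calls used a Benjamini-Hochberg adjusted p under 0.05 over all features tested. Log2 fold changes used a prior count of 0.125, and deviations from the untreated mean a prior count of 2. Exact two-sided permutation tests used log2(CPM + 0.5), and with 3 against 3 libraries none can go below 0.1. Only the RNA fit was tried on simulated counts, for TALE against untreated, with the same spread for every gene and group. The simulation did not cover MeDIP counts, the other steps or groups of unequal spread. Alternatives were DESeq2 1.42.0, other scalings and filters, fits of 2 groups, a replicate block and leaving out each library. Depth limits precision most for ZNF10 and for MeDIP regions with few counts.

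Gene starts, exons and sequences came from GENCODE annotation and the GRCh37 genome. The 10 genes and the lists were chosen with earlier results of these data known. Of the lists, the gene with the lowest unadjusted p for silenced against untreated was named unless a gene passed the adjusted p, and of the MeDIP regions those within 2 kb of a start and the region of lowest p in each gene. Some markers and some start windows and regions are not reported here.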

Additional observations from a re-analysis of the deposited data

How the results depend on the processing

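No setting gave a call among the 10 genes: of 630 values of their log2 fold changes under the alternatives, 0 passed the adjusted p, whose lowest value was 0.162 (MORC2, TALE against untreated, without TALE replicate 3). Of these values, 584 kept their direction and 46 turned it. Upper-quartile factors gave TALE against untreated values of -0.0185 for ATF7IP and -0.0118 for CBX3, and a filter of at least 10 counts in every sample -0.0039 and -0.0006. The other turned values came from leaving out 1 library in turn. For TALE against untreated the range was -0.12 to 0.11 for ATF7IP, -0.13 to 0.088 for CBX3, -0.0168 to 0.17 for FAM208A, -0.27 to 0.0515 for MPHOSPH8 and -0.0362 to 0.24 for ZNF10. For dCas9 against untreated the range was -0.0384 to 0.0579 for CBX1, -0.0401 to 0.13 for CBX3, -0.0523 to 0.14 for FAM208A, -0.21 to 0.14 for MPHOSPH8 and -0.21 to 0.17 for ZNF10. For TALE against dCas9 the range was -0.16 to 0.0565 for CBX3, -0.24 to 0.0097 for CBX5, -0.0077 to 0.0883 for FAM208A, -0.0636 to 0.30 for MORC2, -0.25 to 0.15 for MPHOSPH8, -0.0060 to 0.0789 for SETDB1 and -0.0795 to 0.31 for ZNF10. For silenced against untreated the range was -0.0498 to 0.0689 for CBX3, -0.0346 to 0.15 for FAM208A, -0.14 to 0.036 for MPHOSPH8, -0.13 to 0.0258 for TRIM28 and -0.0576 to 0.14 for ZNF10. Other values kept their direction but moved by over 1.5 times without 1 library, such as SETDB1 with dCas9 (0.03 to 0.12), TRIM28 with TALE (0.0057 to 0.15), UHRF1 (0.13 to 0.33), PPHLN1 (0.03 to 0.14), ZNF140 (-0.71 to -0.29) and ZNF605 (-0.32 to -0.06), the last 4 for silenced against untreated. The 0 calls among listed pathway genes and among MeDIP regions of the 10 genes held under every alternative run. Of 217 values of the named MeDIP regions, 6 turned direction, all when 1 library was left out, with ranges of -0.0792 to 0.11 for the region upstream of SETDB1 and -0.0576 to 0.12 for that of CBX3. Counts over all genes moved more. DESeq2 called 9 genes for TALE, 27 for dCas9 and 36 for silenced, each against untreated. Without a filter on low counts edgeR called 74, 89 and 79, and 77 for TALE against dCas9, and with at least 10 counts in every sample it called 1, 2 and 3. A fit of only the 2 groups compared called 8 genes and 0 MeDIP regions for dCas9 against untreated. Leaving out 1 library gave 2 to 16 genes for TALE, 2 to 10 for dCas9, 2 to 33 for silenced (16, 10 and 33 without TALE replicate 3), and 0 to 21 for TALE against dCas9 (21 without dCas9 replicate 1). MeDIP regions called with no filter were 2 with dCas9, 0 between TALE and dCas9 and 1 with silenced, and with at least 10 counts 1 for TALE and 0 for dCas9. Without 1 library they numbered 0 to 2 with TALE, 0 to 3 with dCas9, 0 to 1 between TALE and dCas9 and 0 to 2 with silenced. The cause was not tested for any of these shifts. Replicate numbers showed no clear pairing of the samples. The correlation of same-numbered RNA libraries ran from -0.256 to 0.101, beside -0.124 to 0.218 for differently numbered ones. That of MeDIP libraries ran from -0.0050 to 0.0038, beside -0.0081 to 0.0090. Such weak correlations cannot exclude a pairing. A replicate block gave 3, 2 and 4 genes for TALE, dCas9 and silenced, 0 MeDIP regions for dCas9, and 0 of the 10 genes in any comparison. Depth is lowest for ZNF10 (42 to 72 counts) and for the MeDIP regions, where small changes could not have been called.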
